A study of Mus musculus with 12 samples.

Results

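Cholesterol synthesis was described through 7 genes: Srebf2, its regulator Insig1, and the enzyme genes Hmgcs1, Idi1, Fdft1, Sqle and Cyp51. They were taken by symbol as 7 of the 23337 rows of the count table, and all 7 passed the filter on low counts that 12217 genes passed. The table covers 12 bulk RNA-seq libraries of microglia, the resident macrophages of the brain, from wild-type male C57BL/6N mice at postnatal day 60. There were 3 libraries each from cortex, hippocampus, striatum and cerebellum, and no library was treated. Each library came from 3000 live CD45 low, CD11b+ cells sorted for TMEM119, a surface protein of microglia, out of tissue pooled from 3 to 5 mice. The labels do not say whether the pools of a region held different mice. The p-values therefore refer to the spread among libraries, part of which may be technical. In bulk RNA, fewer cells of a type and less RNA per cell cannot be told apart.

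Cells make cholesterol from acetyl-CoA through mevalonate, isoprenoids and squalene. SREBP2, the product of Srebf2, is a membrane-bound transcription factor that the escort protein SCAP carries to the Golgi when sterols are low, where proteases release its active part. INSIG proteins hold SCAP in the endoplasmic reticulum when sterols are abundant, and Insig1 is itself a target of SREBP. In the adult brain, which takes up little cholesterol from blood, astrocytes and oligodendrocytes are the best known producers, and microglia also handle cholesterol from the debris they engulf.

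Promoter windows of 5 of the 7 genes (Srebf2, Insig1, Hmgcs1, Idi1 and Cyp51) were matched in RefSeq for GRCm38.p6. The stretches below were chosen because the regulator Srebf2 and the enzyme gene Hmgcs1 held an exact match to TCACNCCA, a form of the sterol regulatory element, and Cyp51, the member with the smallest p over the regions, did not. Each stretch ends at the base before the first annotated base of the gene and runs 5′ to 3′ on the strand of the gene. Capitals mark the match. The positions are chr15:82147019-82147180 on the plus strand for Srebf2, chr13:119690101-119690378 on the plus strand for Hmgcs1 and chr5:4104747-4104947 on the minus strand for Cyp51.
Srebf2: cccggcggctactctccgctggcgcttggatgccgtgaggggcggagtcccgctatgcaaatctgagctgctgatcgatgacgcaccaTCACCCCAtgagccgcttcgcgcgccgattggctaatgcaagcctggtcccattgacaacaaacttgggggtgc
Hmgcs1: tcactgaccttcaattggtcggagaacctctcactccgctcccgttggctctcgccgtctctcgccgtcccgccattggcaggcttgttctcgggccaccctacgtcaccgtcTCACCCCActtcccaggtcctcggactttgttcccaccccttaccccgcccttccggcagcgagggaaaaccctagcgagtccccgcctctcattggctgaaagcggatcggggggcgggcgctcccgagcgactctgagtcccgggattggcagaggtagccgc
Cyp51: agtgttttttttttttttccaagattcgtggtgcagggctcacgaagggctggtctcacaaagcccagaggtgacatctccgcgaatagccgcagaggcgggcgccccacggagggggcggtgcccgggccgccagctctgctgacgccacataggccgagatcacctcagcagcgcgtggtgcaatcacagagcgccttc
Over the whole windows, searched on both strands, TCACNCCA was present in 2 of the 5 genes and in 1433 of all 32851 promoter windows of that length (4.36%). CCAAT, the box bound by NF-Y, was present in 5 of 5 and in 37.4% of all windows. In these 5 windows no match of CCAAT overlapped a match of TCACNCCA. A match of letters is a description of the window, and no match says only that these letters were not there.

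The libraries expressed microglia markers at 26565 to 36555 CPM (counts scaled to library size with TMM factors) summed over 8 genes. Total counts ran from 6479839 to 14833340. The smallest library, striatum 2, stood apart: it had no count for 986 of the 10018 genes whose mean was 50 counts or more, and each other library missed 4 to 44 of them. Many values are therefore also given without it, and values with no such remark include it where striatum is used. Over all 12217 genes, none passed the test over the 4 regions at a Benjamini-Hochberg adjusted p under 0.05 (edgeR quasi-likelihood test), and 222 had an unadjusted p under 0.05, or 1.82%. DESeq2 called 5 genes over the 4 regions, none of them a member.

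Of the 7 members, 0 passed the 4-region test (edgeR, adjusted p = 1.00 each), where the share called over all genes was 0%. Cyp51 alone had an unadjusted p under 0.05. In striatum all 7 fitted levels lay below cortex and below hippocampus, and 5 of 7 without striatum 2. In cerebellum 6 of 7 lay below cortex, Srebf2 being the exception. None of these differences passed the test, and the sections that follow give the libraries behind each.

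**Figure D1:**
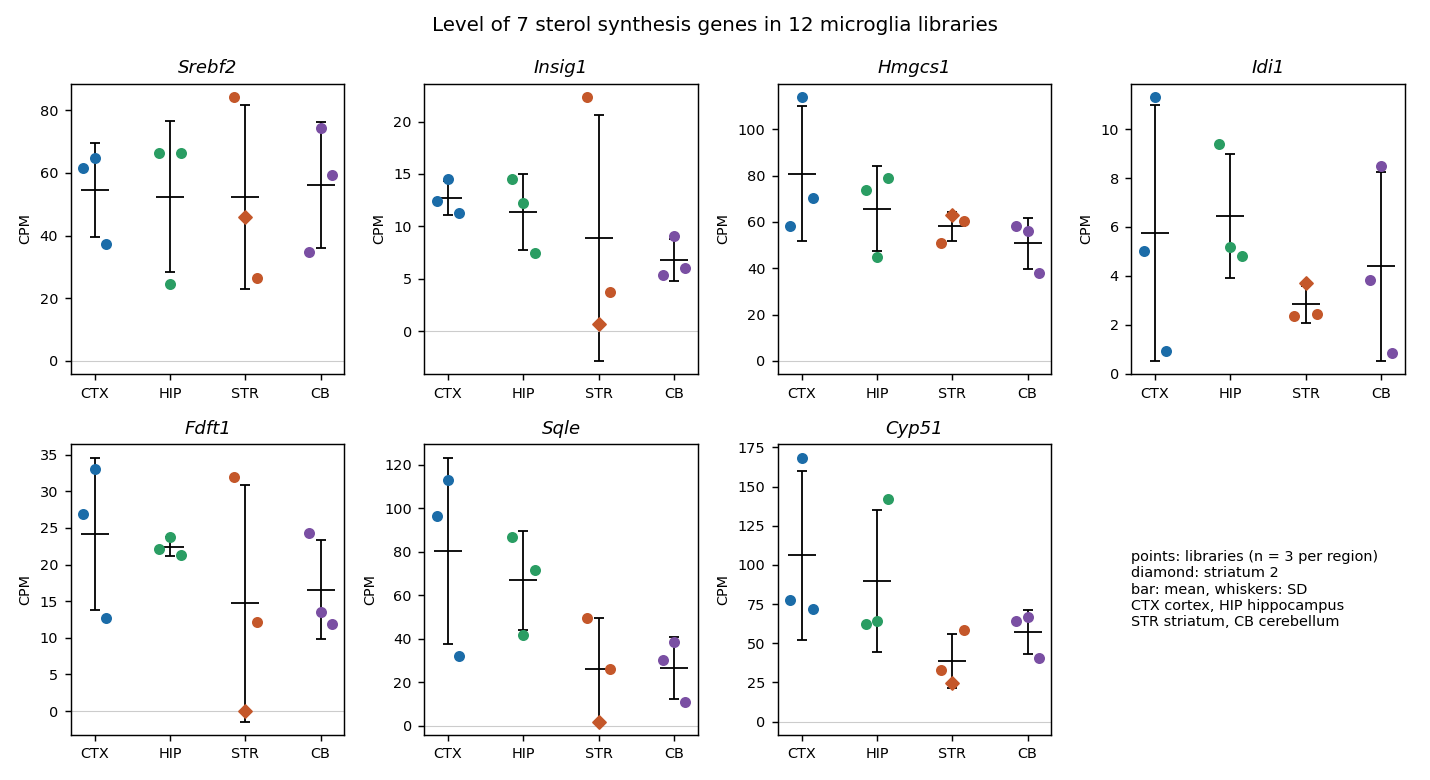
CPM of each of the 7 genes (vertical axes, linear, a scale per gene) in the 3 libraries of cortex (CTX), hippocampus (HIP), striatum (STR) and cerebellum (CB), with the mean and SD of each region. The diamond is striatum 2, which has the lowest value of Sqle, Fdft1, Insig1 and Cyp51, and the highest Cyp51 value, 168.5 CPM, is in cortex 2.

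Srebf2 encodes SREBP2, the factor that drives the pathway (chromosome 15, 82147181 to 82205379, GRCm38, plus strand). In cortex it was at 61.7, 64.6 and 37.4 CPM in libraries 1, 2 and 3. Hippocampus had 66.2, 24.7 and 66.4 CPM. Striatum had 84.3, 45.9 and 26.6 CPM, and cerebellum 34.8, 74.4 and 59.3 CPM. Every pair of regions overlapped, and the highest and the second lowest library were both from striatum. The region means were the closest of the 7 genes, with cortex at 54.6 ± 14.9 CPM, hippocampus at 52.4 ± 24.0, striatum at 52.3 ± 29.3 and cerebellum at 56.1 ± 20.0 (SD, n = 3 each). The 4-region test gave an unadjusted p = 0.995 by edgeR. The pair with the smallest p was cerebellum minus striatum, with a log2 difference of 0.10 (95% interval −0.94 to 1.14, edgeR unadjusted p = 0.831). Cerebellum minus the mean of the other 3 regions was 0.08 (−0.76 to 0.93), an interval that leaves room for differences of almost 1 log2 unit either way.

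Insig1 encodes the retention protein that keeps SCAP and SREBP in the endoplasmic reticulum (chromosome 5, 28071363 to 28078662, plus strand). It stood at 12.5, 14.5 and 11.3 CPM in cortex and 14.5, 12.2 and 7.46 CPM in hippocampus. In striatum it was at 22.4, 0.647 and 3.72 CPM, which spans both the highest and the lowest of the 12 libraries. The 0.647 CPM of striatum 2 rests on 4 counts. In cerebellum the values were 5.33, 9.06 and 5.99 CPM, all below the 3 cortex libraries. The log2 difference between cerebellum and cortex, the pair with the smallest p, was −0.91 (95% interval −2.89 to 1.08, edgeR unadjusted p = 0.343). Against the mean of the other 3 regions, cerebellum was at −0.68 (−2.36 to 1.00). It was at −0.87 (−1.96 to 0.22) without striatum 2, and at −0.01 without striatum 1, a fit that keeps striatum 2. The 4-region test gave an edgeR unadjusted p = 0.772. With each library left out in turn it ran from 0.069 (without striatum 1) to 0.886 (without cerebellum 1). The related gene Insig2, whose protein has the same retention role, had region means from 72.0 ± 27.0 CPM in striatum to 80.7 ± 8.33 in cortex (SD, n = 3 each).

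Hmgcs1 encodes the cytosolic HMG-CoA synthase, an early step of the pathway (chromosome 13, 119690379 to 119708260, plus strand). Cortex libraries held 58.2, 114.0 and 70.5 CPM. Hippocampus held 73.8, 44.7 and 78.9 CPM, and striatum 51.1, 63.2 and 60.3 CPM. In cerebellum the values were 58.4, 55.9 and 38.0 CPM. Cortex 2 was the highest library and cerebellum 3 the lowest, and the highest cerebellum library passed the lowest cortex library by less than 1 CPM. The 63.2 CPM of striatum 2 was the highest of its region, in the library where Sqle, Fdft1, Insig1 and Cyp51 were lowest. Its region means were 80.9 ± 29.3, 65.8 ± 18.4, 58.2 ± 6.30 and 50.8 ± 11.1 CPM for cortex, hippocampus, striatum and cerebellum (SD, n = 3 each). Cerebellum minus cortex, the pair with the smallest p, was −0.67 on the log2 scale (95% interval −1.37 to 0.02, edgeR unadjusted p = 0.057), and −0.35 without cortex 2. Against the mean of the others cerebellum was at −0.41 (−0.99 to 0.17), and the 4-region edgeR unadjusted p = 0.235. An antisense gene, Gm48342, shares 557 of the 4594 exonic bases of Hmgcs1, and reads there cannot be assigned without strand.

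Idi1 encodes isopentenyl diphosphate isomerase, which makes the allylic isoprenoid unit (chromosome 13, 8885501 to 8892451, plus strand). It was the weakest of the 7 genes, with 7 to 175 counts per library. Cortex held 5.01, 11.3 and 0.940 CPM and hippocampus 9.38, 5.17 and 4.82 CPM. Striatum held 2.37, 3.72 and 2.45 CPM and cerebellum 3.82, 8.52 and 0.838 CPM. All 3 striatum libraries lay below all 3 hippocampus libraries, while cortex and cerebellum each spanned most of the range of the whole set. The difference between striatum and hippocampus, the pair with the smallest p, was −1.18 (95% interval −3.41 to 1.05, edgeR unadjusted p = 0.272). The cerebellum difference from the mean of the others was −0.10 (−1.91 to 1.70), and the 4-region edgeR unadjusted p = 0.689. Gm48574 on the other strand shares 323 of the 3505 exonic bases of Idi1.

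Fdft1 encodes squalene synthase, which commits isoprenoids to sterols (chromosome 14, 63145150 to 63179578, minus strand). Cortex held 26.9, 33.0 and 12.7 CPM and hippocampus 22.1, 23.8 and 21.3 CPM, the tightest group. Striatum held 32.0, 0 and 12.1 CPM, and cerebellum 24.3, 13.5 and 11.9 CPM. The 0 in striatum 2 allows up to 3 counts, or 0.485 CPM, for counting error only. Striatum 1 was among the highest libraries while striatum 2 had no count, so the region overlapped every other. Striatum minus cortex, the pair with the smallest p, was −0.72 (95% interval −2.97 to 1.53, edgeR unadjusted p = 0.502), −0.14 without striatum 2 and −1.97 without striatum 1. The cerebellum difference from the mean of the others was −0.27 (−2.13 to 1.59). Without striatum 1 its sign turned, at 0.15, as it did under limma-voom (0.24). The 4-region edgeR unadjusted p = 0.882. Fdft1 shares 774 of its 4227 exonic bases with Ctsb on the other strand, the gene of the lysosomal protease cathepsin B. Ctsb was at 3401 to 7750 CPM in the 12 libraries and at 6965 CPM in striatum 2, where Fdft1 had no count.

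Sqle encodes squalene epoxidase, a rate-limiting enzyme after squalene (chromosome 15, 59315077 to 59331192, plus strand). Cortex held 96.3, 113.2 and 32.1 CPM and hippocampus 87.0, 41.9 and 71.6 CPM. Striatum held 49.6, 1.94 and 26.3 CPM, and cerebellum 30.3, 38.7 and 11.02 CPM. The 1.94 CPM of striatum 2 rests on 12 counts. The 3 cerebellum libraries lay below the 3 hippocampus libraries, and cortex 3 fell within the cerebellum range. The mean was 80.5 ± 42.8 CPM for cortex and 66.8 ± 22.9 for hippocampus, against 25.9 ± 23.8 for striatum and 26.7 ± 14.2 for cerebellum (SD, n = 3 each). Striatum minus cortex, the pair with the smallest p, was −1.63 (95% interval −3.40 to 0.14, edgeR unadjusted p = 0.068), −1.09 without striatum 2 and −2.49 without striatum 1 (edgeR unadjusted p = 0.0196). Cerebellum minus cortex was −1.59 (−3.36 to 0.18, edgeR unadjusted p = 0.074). Without striatum 2 its size was −1.60 with a narrower interval (−2.70 to −0.49, edgeR unadjusted p = 0.0080, adjusted p = 1.00). Cerebellum minus the mean of the other 3 regions moved from −0.96 (−2.45 to 0.54) to −1.14 (−2.10 to −0.18) without striatum 2, and the 4-region unadjusted p from 0.132 to 0.0335. None of these passed adjustment.

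Cyp51 encodes lanosterol 14-alpha-demethylase, the first step from lanosterol towards cholesterol (chromosome 5, 4081145 to 4104746, minus strand). Cortex held 77.9, 168.5 and 72.2 CPM and hippocampus 62.5, 64.5 and 142.2 CPM. Striatum held 32.9, 24.9 and 58.3 CPM, and cerebellum 64.1, 66.7 and 40.7 CPM. Striatum lay below cortex and below hippocampus with no overlap, and cerebellum lay below cortex with no overlap, and cortex 2 and hippocampus 3 stood far above the other libraries of their regions. Cortex averaged 106 ± 54.0 CPM, hippocampus 89.7 ± 45.5, striatum 38.7 ± 17.4 and cerebellum 57.2 ± 14.3 (SD, n = 3 each). Striatum minus cortex was −1.45 on the log2 scale (SE 0.45, 95% interval −2.43 to −0.47, edgeR unadjusted p = 0.00702, adjusted p = 0.80). Its size ran from −1.88 without striatum 3 to −0.96 without cortex 2, where the unadjusted p was 0.0546 by edgeR. Striatum minus hippocampus was −1.21 (−2.19 to −0.24, edgeR unadjusted p = 0.019, adjusted p = 0.95), and −0.97 without striatum 2 (−1.98 to 0.03, edgeR unadjusted p = 0.056). Cerebellum minus cortex was −0.89 (−1.86 to 0.07), and cerebellum minus the mean of the others −0.33 (−1.13 to 0.47). The 4-region unadjusted p of 0.0295 ran from 0.0136 to 0.0823 when each library was left out in turn, and its adjusted value was 1.00 (edgeR). Akap9 on the other strand shares 166 of the 4415 exonic bases of Cyp51 and was at 52.6 to 116 CPM.

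**Figure D2:**
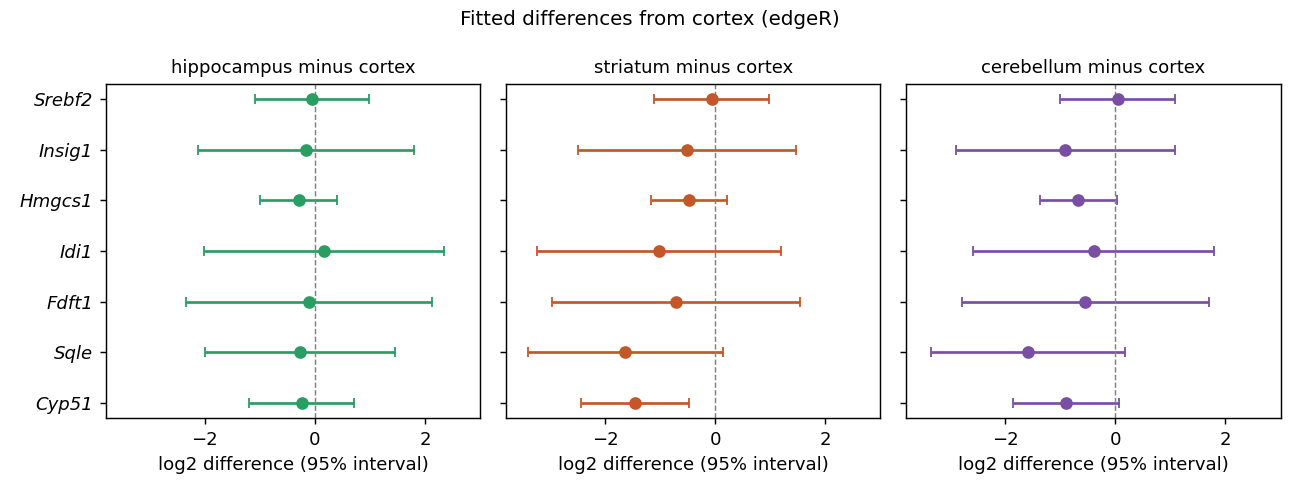
Log2 differences of hippocampus, striatum and cerebellum from cortex (horizontal axis) for each of the 7 genes, with 95% intervals of the edgeR fit over 12 libraries. All 7 striatum points are left of 0 and only the interval of Cyp51 in striatum (−2.43 to −0.47) does not cross it.

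Counted together, the 7 genes had a median log2 difference of −0.72 in striatum against cortex, where 7 of 7 were below and the median of all 12217 genes was −0.06. Among all genes, 54.3% were below cortex there. Without striatum 2, 5 of the 7 were below, the median was −0.54, and Insig1 and Srebf2 were at 0.03 and 0.02. The median was −1.35 without striatum 1 and −0.41 without cortex 2. Cyp51 was the 1 member of 7 whose striatum and cortex libraries did not overlap, against 5.96% of all genes lower without overlap.

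Striatum against hippocampus gave a median of −0.61 with 7 of 7 below (53.8% of all genes), −0.24 with 5 of 7 below without striatum 2, and −1.11 without striatum 1. Idi1 and Cyp51 were lower without overlap, against 6.59% of all genes. Cerebellum against cortex gave a median of −0.67 with 6 of 7 below, where 49.1% of all genes were below and the median of all genes was 0.01. It was −0.35 without cortex 2 and −1.02 without cerebellum 2. Without striatum 2, Sqle, Hmgcs1 and Cyp51 had unadjusted p-values under 0.05 in this comparison, against 3.05% of all genes, and none passed adjustment (edgeR, adjusted p = 1.00 each). Insig1 and Cyp51 were lower without overlap, against 2.93% of all genes, and Hmgcs1 joined them under the 3 other scalings of library size. Cortex and cerebellum libraries of the same number had gene deviations that correlated over a cutoff of 0.1 in all 3 pairs (0.287, 0.101 and 0.224). Libraries of different numbers and regions reached 0.198, and no label says what a number stands for. These regions were also compared within pairs. That pairing was chosen from these same data, so the p-values of the block depend on the choice. Sqle, Fdft1, Idi1, Insig1 and Cyp51 were lower in cerebellum in 3 of 3 pairs, as were 15.2% of all genes, Hmgcs1 in 2 and Srebf2 in 1. With the number as a block, on the 6 libraries of these regions alone, Sqle was at −1.59 (95% interval −2.07 to −1.10, edgeR unadjusted p = 6.2e-05, adjusted p = 0.24). Cyp51 was at −0.82 (−1.36 to −0.28, edgeR unadjusted p = 0.0081, adjusted p = 0.68) and Hmgcs1 at −0.64 (−1.22 to −0.07, edgeR unadjusted p = 0.033, adjusted p = 0.68). These were 3 of 7 members at an unadjusted p under 0.05, against 7.31% of the 11534 genes tested, and 0 members and 0 genes passed adjustment. With the block over all 12 libraries, 0 of 7 members had an unadjusted p under 0.05, against 1.6% of all genes.

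Cerebellum against hippocampus gave −0.55 with 6 of 7 below (48.7% of all genes), or −0.24 without cerebellum 3, and Sqle alone was lower without overlap, against 3.55% of all genes.

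The remaining comparisons gave smaller medians. Hippocampus minus cortex had a median of −0.16 with 6 of 7 below (52.9% of all genes), and 0 were lower without overlap (3.05% of all genes). That median turned to 0.08 without cortex 2 and was −0.39 without cortex 3. Cerebellum minus striatum had a median of 0.10 with 2 of 7 below (44.2%) and 0 lower without overlap (2.4%), and −0.14 with 4 of 7 below without striatum 2. Cerebellum minus the mean of the other 3 regions had a median of −0.33 with 6 of 7 below (45.4%), and no member lay below all 9 other libraries in all of its cerebellum libraries, against 0.131% of all genes. Without cerebellum 3 that median was −0.13, and without cerebellum 1 it was −0.53. In each of the 7 comparisons between regions, 0 of 7 members passed the adjusted test by edgeR, as did 0 of all genes, or 0%. At an unadjusted p under 0.05, Cyp51 was the 1 member of 7 in striatum against cortex (5.59% of all genes) and in striatum against hippocampus (4.34%). There were 0 members in the others, where the shares of all genes were 1.55% for cerebellum against cortex, 1.28% against hippocampus, 2.4% against striatum and 1.07% against the mean of the others, and 1.01% for hippocampus against cortex. These comparisons share libraries, so their directions are not independent of each other.

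Between genes, levels were compared per kilobase of exonic length from GENCODE M21, since longer transcripts yield more fragments. Cyp51 had the highest mean level over the 12 libraries, 16.5 CPM per kb, followed by Hmgcs1 at 13.9, Sqle at 9.01 and Srebf2 at 7.49 CPM per kb. Fdft1 was at 4.61, Insig1 at 3.22 and Idi1 at 1.39 CPM per kb. Neighbours in this order overlapped: Cyp51 spanned 5.64 to 38.2 CPM per kb, Hmgcs1 8.26 to 24.8 and Sqle 0.350 to 20.4. Idi1, the lowest, spanned 0.239 to 3.23 CPM per kb and overlapped Insig1, at 0.209 to 7.23.

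The genes also differed in how much they varied between libraries of a region. The within-region SD of log2 CPM was smallest for Hmgcs1 (0.38) and Cyp51 (0.60), near the median of all tested genes (0.57), and Srebf2 was at 0.68. Idi1, Insig1, Sqle and Fdft1 were at 1.20, 1.23, 1.41 and 2.03. Without striatum 2, Sqle was at 0.82, Fdft1 at 0.61, Insig1 at 0.76 and Idi1 at 1.27, and the median of all genes at 0.47. Cyp51 had the largest share of its variance between regions, 55.9%, and Srebf2 the smallest, 2.34%, beside a median of 23.5% over all tested genes. Without striatum 2 these shares were 46.3% for Cyp51 and 1.91% for Srebf2, and that of Sqle was 50.2%.

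Across the 12 libraries, the 7 genes tended to be high or low together. The Pearson correlation of log2 CPM was above 0 in 21 of 21 pairs, with a median of 0.40 (range 0.06 to 0.89). Pairs of all tested genes, taken at every 4th gene, had a median of 0.02. After the region means were removed, 19 of 21 pairs were positive and the median was 0.33. Without striatum 2, 20 of 21 were positive and the median was 0.51. Libraries share their depth and amplification across genes, and the part of these in the correlations was not tested.

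Sqle and Fdft1 had r = 0.89 (n = 12 libraries, permutation p = 0.00046, adjusted over the 21 pairs 0.0097) and Spearman rho = 0.80 (permutation p = 0.0026, adjusted 0.028). Fdft1 and Insig1 had r = 0.89 (permutation p = 0.0015, adjusted 0.014) and rho = 0.74 (permutation p = 0.0075, adjusted 0.052). Sqle and Insig1 had r = 0.87 (permutation p = 0.0020, adjusted 0.014) and rho = 0.82 (permutation p = 0.0019, adjusted 0.028). Leaving out the 2 libraries farthest from the median of the first gene, striatum 2 and cerebellum 3, left r at 0.66 for Sqle and Fdft1, 0.59 for Fdft1 and Insig1 and 0.57 for Sqle and Insig1. Sqle, Fdft1, Insig1 and Cyp51 all had their lowest value in striatum 2. Sqle and Cyp51 were the only other pair past the adjusted threshold, with r = 0.75 (permutation p = 0.0047, adjusted 0.025), rho = 0.68 (permutation p = 0.019, adjusted 0.080) and r = 0.53 without striatum 2 and cerebellum 3. The permutations ran over all 12 libraries without regard to region, so shared region differences count in these p-values. With the region means removed, r was 0.91 for Sqle and Fdft1 and 0.87 for Fdft1 and Insig1. It was 0.81 for Sqle and Insig1 and 0.53 for Sqle and Cyp51. Hmgcs1 and Cyp51 had r = 0.66 (permutation p = 0.020, adjusted 0.086) and rho = 0.46 (permutation p = 0.134, adjusted 0.271), and r = 0.82 without striatum 2. For this pair r was 0.39 without cortex 2 and cerebellum 3, so the relation rests in part on those libraries. Srebf2 had r between 0.08 and 0.34 to the other 6 genes, and the lowest single pair was Hmgcs1 and Fdft1 at 0.06.

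**Figure D3:**
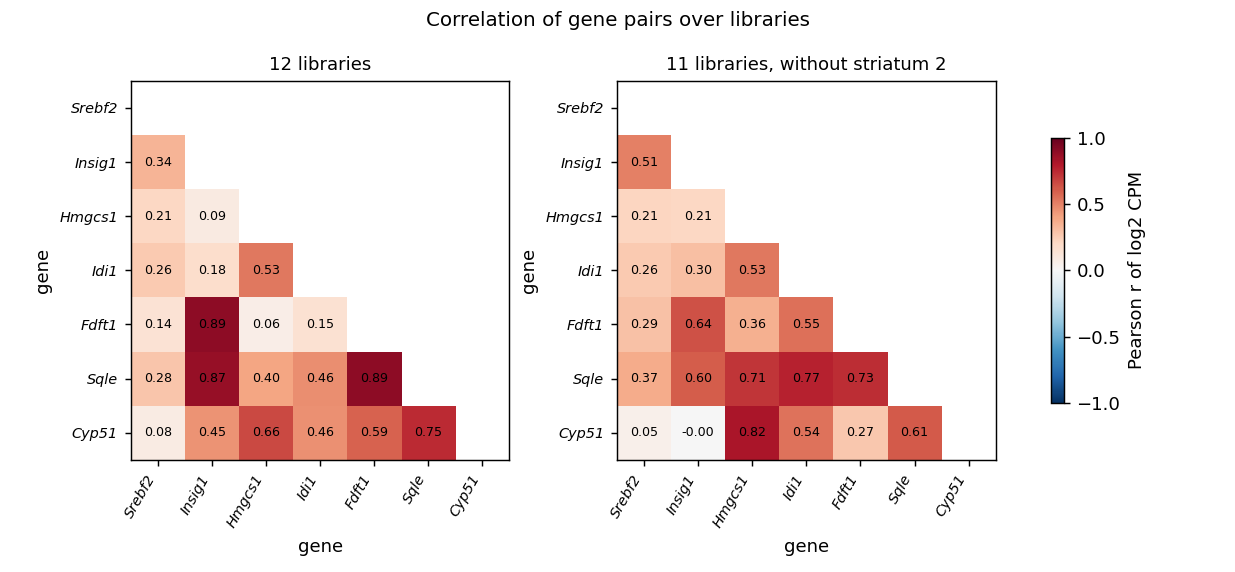
Pearson r of log2 CPM for the 21 pairs of the 7 genes, over 12 libraries (left) and over 11 libraries without striatum 2 (right), with colour from −1 to 1. The values of Sqle, Fdft1 and Insig1 with each other fall from 0.87 to 0.89 on the left to 0.60 to 0.73 on the right, and Hmgcs1 and Cyp51 rise from 0.66 to 0.82.

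The other enzymes of the pathway gave a wider view. Of 16 further enzyme genes on the list, 15 were in the table and tested, and 0 passed in either direction in any comparison by edgeR. In cerebellum 14 of 15 were below cortex (median −0.39, and −0.63 without cortex 3) and in striatum 12 of 15 (median −0.43, −0.60 without striatum 2 and −0.95 without striatum 3). Against hippocampus, 13 of 15 were lower in cerebellum (median −0.36) and 11 of 15 in striatum (median −0.56). The cerebellum median was −0.23 without hippocampus 3. Hippocampus was below cortex in 9 of 15 (median −0.10, which was −0.36 without cortex 3 and turned to 0.01 without hippocampus 2). In striatum 2, Acat2, Mvd, Hsd17b7 and Sc5d, genes of early and late steps, had no count.

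Fdps, which makes farnesyl diphosphate, the substrate of Fdft1, had 24.5 ± 14.4 CPM in striatum and 66.5 ± 34.3 in cortex, a log2 difference of −1.44 (95% interval −2.55 to −0.32, edgeR unadjusted p = 0.016, adjusted p = 0.80). Striatum 2, at 10.7 CPM, is included here, with striatum 1 at 39.4 and striatum 3 at 23.5 CPM. Cortex libraries 1, 2 and 3 held 94.6, 76.7 and 28.3 CPM, so cortex 3 lay below striatum 1 and the regions overlapped. Fdps was chosen after its values were seen. Lbr and Ebp, a sterol reductase of the nuclear envelope and a sterol isomerase, were among the most abundant of the list, at 193 ± 46.1 to 216 ± 58.0 CPM and 53.3 ± 34.0 to 91.3 ± 28.0 CPM by region.

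Genes that process SREBP2 or take up sterol had medians near 0. Of 11 listed, 10 were tested and 0 passed by edgeR in any comparison, with medians of −0.03 in cerebellum and −0.04 in striatum against cortex, which turned to 0.11 and 0.21 without cortex 2. Scap, the escort of SREBP2, had a sign opposite to that of the 7 genes, at 162 ± 81.1 CPM in striatum against 95.6 ± 9.97 in cortex (log2 difference 0.76, 95% interval 0.08 to 1.43, edgeR unadjusted p = 0.030, adjusted p = 0.80). This difference includes striatum 2, whose 252.0 CPM was the highest of the 12 libraries. The lowest striatum library, at 94.9 CPM, lay within the cortex range of 88.2 to 107 CPM. Srebf1, which encodes the related SREBP1, was at 142 ± 12.5, 152 ± 4.50, 106 ± 34.9 and 134 ± 14.9 CPM in cortex, hippocampus, striatum and cerebellum (SD, n = 3 each). The most abundant genes of this list were Npc2, a lysosomal sterol carrier, at 331 to 564 CPM, Mbtps1, the site-1 protease, at 149 to 238 CPM, and Mylip, an LXR-induced ubiquitin ligase, at 108 to 303 CPM.

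Of 12 fatty acid synthesis genes, which SREBP1 drives, 12 were tested and 0 passed by edgeR, with medians of 0.13 in cerebellum and 0.01 in striatum against cortex. Leaving out 1 library turned both signs, to −0.17 in cerebellum without cortex 1 and −0.18 in striatum without striatum 1. Its most abundant genes were Fads1, a desaturase, at 207 to 508 CPM, Scd2, another desaturase, at 109 to 479 CPM, and Acly, which makes cytosolic acetyl-CoA, at 157 to 390 CPM. Of 9 genes for sterol efflux and storage, 9 were tested and 0 passed by edgeR, with medians of 0.30 in cerebellum, which turned to −0.55 without cerebellum 3, and −0.19 in striatum, which turned to 0.26 without cortex 3 and 0.18 without striatum 2. Abca1, a cholesterol exporter, had means of 374 ± 307, 334 ± 159, 608 ± 274 and 565 ± 620 CPM in the order cortex, hippocampus, striatum, cerebellum (SD, n = 3 each). Nr1h2, which encodes the sterol sensor LXR-beta, was at 84.2 to 186 CPM.

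**Figure D4:**
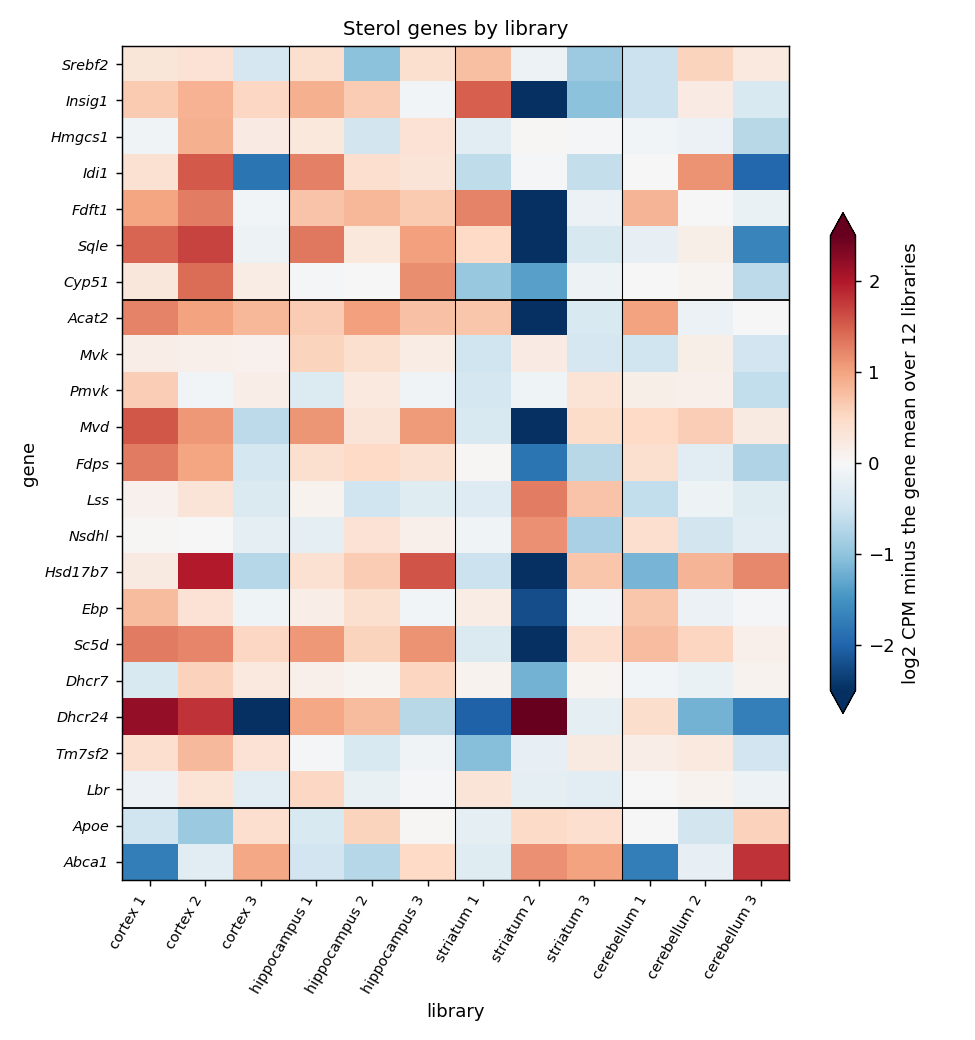
Log2 CPM minus the mean of each gene over 12 libraries (colour, clipped at 2.5 either way) for the 7 genes (top block), 14 other sterol synthesis enzymes (middle block) and Apoe and Abca1 (bottom block), with libraries in columns by region. Striatum 2 is deep blue in many rows, cortex 2 is red in most of the top block, and Apoe runs opposite to the top block.

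To find genes that followed the set, log2 CPM of each of the 7 was turned into a z-score over the 12 libraries, and the 7 scores were averaged. The score was highest in cortex 2 (1.20) and lowest in striatum 2 (−1.45). Among 9052 other genes with a mean of at least 10 CPM, the 5 with the highest Pearson r to the score over 12 libraries were Hsp90ab1 (r = 0.92), Rngtt (0.91), Nop2 (0.91), Ccr1 (0.89) and Idh3a (0.89). Without striatum 2 they had r of 0.79 to 0.87. Fdps ranked 18th (r = 0.84). The other sterol enzymes had a median r of 0.69 with 11 of 13 positive, where all candidates had 0.08 and 55.0% positive. Without striatum 2 that median was 0.35, against 0.00 for all candidates. The medians were −0.08 for SREBP2 processing and uptake, −0.15 for fatty acid synthesis and −0.43 for efflux and storage. Without striatum 2 these were 0.00, 0.18 and −0.49, so the sign for fatty acid synthesis turned. Scap had r = −0.55 with the score, and −0.07 without striatum 2.

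Apoe, the main lipid carrier protein of the brain and a target of the sterol sensor LXR, ran opposite to the set. It was at 2887, 2147 and 5459 CPM in cortex and 3114, 6026 and 4159 CPM in hippocampus. Striatum had 3464, 5672 and 5483 CPM and cerebellum 4091, 2956 and 6033 CPM. In each region the library with the highest Apoe had the lowest score of the 7 genes. Over the 12 libraries r was −0.83 and rho −0.86, and 20 of 9052 genes had a lower r. Removing the region means gave −0.87 and leaving out striatum 2 gave −0.86. No difference of Apoe between regions passed the test (edgeR, cerebellum minus cortex 0.32, 95% interval −0.46 to 1.09; striatum minus cortex 0.48, −0.30 to 1.26). Abca1 had r = −0.51 with the score. These correlations describe libraries that share depth and preparation, and carry no test.

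**Figure D5:**
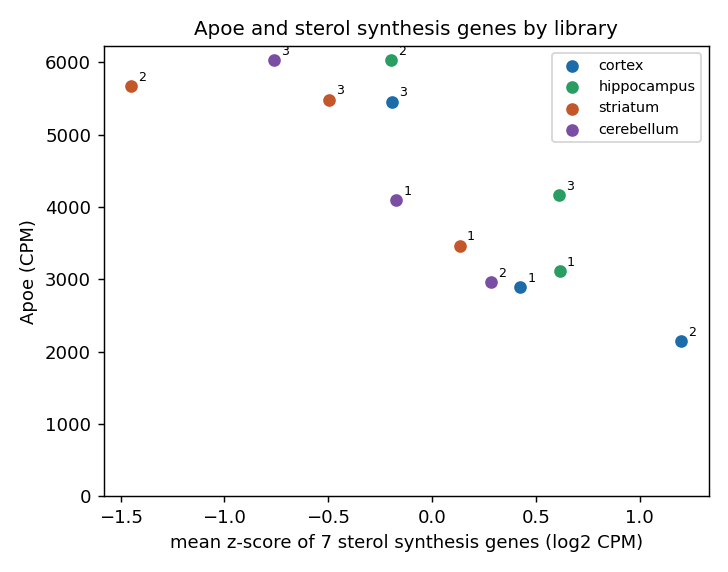
Apoe level (CPM, vertical axis from 0) against the mean z-score of the 7 genes (horizontal axis) in the 12 libraries, coloured by region and marked with the library number. The 5 libraries with Apoe at 5459 CPM or more all have a score below 0.

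Markers of other brain cells were far below those of microglia. Over 8 oligodendrocyte markers the sum was 99.9 to 182 CPM for cortex, 144 to 169 for hippocampus, 113 to 200.3 for striatum and 126 to 200.3 for cerebellum. Of these, Mal had 0 counts in all 12 libraries, and Mobp and Cldn11 in 11. Astrocyte markers summed to 59.5 to 117 CPM for cortex, 36.3 to 103 for hippocampus, 52.1 to 85.0 for striatum and 54.8 to 112 for cerebellum. Choroid plexus and ependymal markers reached 795 CPM in striatum 2, against 275 CPM or less in each other library. Border macrophage markers summed to 256 to 858 CPM with overlapping ranges in the 4 regions, and 6 of 7 were below cortex in cerebellum (median −0.85) and 4 of 7 in striatum (−0.07). Neuron markers summed to 6.49 to 47.1 CPM and had medians of −0.66 in cerebellum and −0.94 in striatum against cortex, and 7 of 7 were lower in striatum than in hippocampus. Astrocyte markers had medians of −0.57 and −0.91 against cortex, with 5 of 7 below in each region. Oligodendrocyte markers went the other way, with medians of 0.34 in cerebellum (0 of 5 tested below cortex) and 0.50 in striatum (1 of 5). So did the microglia markers, at 0.21 in cerebellum (0 of 8 below) and 0.22 in striatum (1 of 8). Immediate early genes, the first transcripts of a stimulated cell, were below cortex in 9 of 9 in cerebellum (median −0.44) and 8 of 9 in striatum (−0.45), on sums of 447 to 821 CPM. None of these genes passed the test by edgeR, and the striatum medians include striatum 2. The part of these genes and cells in the levels of the 7 genes was not tested.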

How the data were processed

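The authors deposited whole-number read counts per gene symbol, without normalization, for the 12 libraries. Per the labels' protocols, poly(A) cDNA was made with the Smart-Seq v4 kit (9 cycles) and 380 pg went into Nextera XT libraries (13 cycles), a route that does not mark strand. Per the submitters' processing notes, Trim Galore 0.4.3, STAR 2.5.3a, Picard, HTSeq and mm10 were used, with the annotation and strand setting not given in the sources used here.

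From these counts, CPM was computed with TMM factors, and edgeR 4.0.16 (R 4.3.3, robust quasi-likelihood) was fitted over all 12 libraries on the 12217 genes that passed filterByExpr (minimum count 10, total 15), with Benjamini-Hochberg adjustment over all genes and a threshold of 0.05. Comparisons were the 4 regions together, the 6 pairs and cerebellum against the mean of the others. Correlations used log2 CPM with a prior count of 2 and 1e+05 permutations over all 12 libraries, without regard to region. DESeq2 1.42.0, limma 3.58.1 (voom), other scalings and filters, a replicate block and leaving out each library were alternatives. The fits were also run on simulated data, with planted differences larger than any fitted for the members over 12 libraries. Detection at the sizes seen here was therefore not examined. Total counts of 6479839 to 14833340 put the limit of 3 counts at 0.194 to 0.485 CPM, for counting error only, since reads carry no molecular identifiers. Libraries of a region differed by far more than sampling noise (chi-square per degree of freedom 29.8 to 80.5 in 12 pairs), so none was counted as a copy. Replicate numbers were held to pair 2 regions where every same-number pair of libraries had deviations from region means correlated at over 0.1. This held for cortex and cerebellum (0.287, 0.101 and 0.224) and for no other pair of regions, while no label says what a number stands for.

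The members and the 16 gene lists were chosen with earlier results of these data known. Named by rule were the 7 members, Insig2, Scap, Srebf1 and Abca1, the 3 genes of highest mean CPM in each pathway list, and the 5 genes most like the score of the members. Other genes were named with their values in view, and a few set by rule are not reported here.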

Additional observations from a re-analysis of the deposited data

How the results depend on the processing

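With 3 libraries per region and 12 libraries in all, every 95% interval of the 7 genes in the main fit was wider than 1 log2 unit. The narrowest was that of Hmgcs1 for cerebellum minus the mean of the others (−0.99 to 0.17). Even Cyp51 at −1.45 in striatum minus cortex did not pass (edgeR adjusted p = 0.80). Differences of 1 log2 unit could thus go uncalled for any of the 7. In no setting run did a member pass the adjusted threshold. By edgeR, 0 genes passed in any comparison, also in each of the 12 fits without 1 library. DESeq2 called 5 genes over the 4 regions, 7 for cerebellum minus cortex, 2 for cerebellum minus hippocampus, 3 for cerebellum minus striatum, 13 for striatum minus cortex, 5 for hippocampus minus cortex and 2 for cerebellum minus the mean of the others, and none was a member. Limma-voom called 0 genes over the 4 regions (280 at an unadjusted p under 0.05). The median log2 difference of the 7 members for striatum minus cortex was −1.35 under limma-voom, and ran from −1.35 (without striatum 1) to −0.41 (without cortex 2) when a library was left out. Cerebellum minus the mean of the others turned sign for Fdft1 under limma-voom (0.24) and over the left-out libraries (−0.66 to 0.15), for Idi1 (−1.02 to 0.38; 0.21 without cortex 2, 0.38 without cerebellum 3 and 0.01 without hippocampus 1) and for Srebf2 (−0.17 to 0.33; −0.17 without cerebellum 2, −0.03 without hippocampus 2 and −0.02 without striatum 3). Srebf2 in cerebellum minus striatum ran from −0.21 (without striatum 3) to 0.64, with −0.15 without cerebellum 2. The cause was not tested. The median r of the 21 pairs ran from 0.28 to 0.51. The pathway-list medians and the overlap counts under other scalings were added after seeing the data.

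Over the 18 same-number pairs of libraries in different regions, deviations correlated at −0.12 to 0.29, with 4 over 0.1, 3 of them the cortex and cerebellum pairs, and 9 of 12 libraries correlated best with a library of their own number. With the number as a replicate block over 12 libraries, 0 genes and 0 members passed in each comparison, and the median of the members was −0.97 for striatum minus cortex, −0.96 for striatum minus hippocampus and −0.66 for cerebellum minus cortex, and the median r of the pairs 0.29. The block on the cortex and cerebellum libraries alone, added after seeing the data, gave a median of −0.64 and 0 calls.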
